A study of Homo sapiens with 4 samples.

Results

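The homeobox cofactors of the MEIS, PBX, PKNOX and TGIF families were followed in THP1 cells after knockdown of the fusion gene MLL-AF9. THP1 is a cell line from an acute myeloid leukemia of the M5 subtype that carries this fusion of MLL with AF9, the gene called MLLT3 on the array. The members were 9 genes, MEIS1, MEIS2, MEIS3, PBX2, PBX3, PBX4, PKNOX1, PKNOX2 and TGIF1, chosen by gene name. Probes were kept when they were no control spots and had a quality weight above 0 on all 4 arrays. This left 10 probes for 8 genes, of 26219 probes on the array that met the same criteria. PKNOX2 had 1 probe, whose weight was 0 on all 4 arrays.

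The siRNAs against the fusion breakpoint, siRNA-A and siRNA-B, gave 1 knockdown array each, and 2 non-targeting siRNAs, control siRNA-1 and control siRNA-2, gave 1 control array each. Cells of both groups were transfected at the start (day 0) and again on days 3 and 6. They were grown in medium with 10% fetal calf serum up to day 6 and with 0.5% thereafter, and were harvested on day 8. Each array held RNA pooled from 5 experiments. The pools were of 1 cell line and differed in their siRNA, so the p-values rest on the spread between 4 arrays and between siRNA sequences. In limma the variance of each probe is also drawn toward that of all probes. The spread between the 5 pooled experiments was not measured. All arrays shared 1 slide. The knockdown took its positions 1 (siRNA-B) and 2 (siRNA-A) and the controls took 3 and 4, and effects of treatment and of slide position cannot be told apart.

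TALE proteins carry a homeodomain with an extended loop between its first helices, which gave the class its name. PBX proteins bind DNA together with HOX proteins, and MEIS and PKNOX proteins bind PBX proteins, help to keep them in the nucleus and join them on DNA. MEIS1 together with HOXA9 is known as a driver of MLL-rearranged leukemia, and PBX3 is known as a partner of both. TGIF1 is a related repressor that acts on retinoid and TGF-beta responses.

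PBX3 was the 1 member gene that fell past the threshold used here, an unadjusted p under 0.005. Both of its probes fell, to 70.1% and 71.6% of the control level. MEIS1 lay close to the background, and its 2 probes moved in opposite directions without passing the threshold. PBX2, PBX4, MEIS2, MEIS3, PKNOX1 and TGIF1 had changes between -0.15 and 0.14 on the log2 scale and did not pass it.

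The first 30 bases of the probes of PBX3 and MEIS1 are shown because PBX3 was the gene called and the probes of MEIS1 differed in direction. All probes are 60 bases long, and positions are those of the array's annotation on hg19. The PBX3 probes lie at chr9:128728847-128728906 for A_23_P71821 and at chr9:128728209-128728268 for A_33_P3348887, and both are assigned to the same transcript, at bases 2065 and 1427. The MEIS1 probes lie further apart, at chr2:66799326-66799385 for A_24_P319736 and at chr2:66667364-66667423 for A_33_P3342938, and are assigned to different transcripts.
PBX3 A_23_P71821: agacgaagatacttgctgctgatagaggtg
PBX3 A_33_P3348887: gccacacttttccctgagctacatgccttg
MEIS1 A_24_P319736: aggaggcatggaaaccaaaaggccgtgtgt
MEIS1 A_33_P3342938: aaagcaaacgtggagagctcactctgcaga

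The 250 bases before the annotated start of PBX3 and of MEIS1 are shown for the same reason and because their own families bind the motifs searched for (RefSeq, GRCh38.p14, plus strand, chr9:125747933-125748182 and chr2:66434875-66435124). They were scanned on both strands for TGACAG, which MEIS, PKNOX and TGIF proteins bind, and for TGATTNAT, a joint site of PBX and HOX proteins. The PBX3 window held 1 match, to TGACAG on the minus strand, which ended 14 bases before the start and is in capitals. The MEIS1 window held no match to these letters. TGACAG was found in 13% and TGATTNAT in 2.48% of the 35116 windows of this length in the reference. The windows of PBX2, PBX4, MEIS3 and PKNOX1 held neither, and 1 of 2 windows of MEIS2 held TGATTNAT. Of 7 windows of TGIF1, 2 held TGACAG and 2 held TGATTNAT.
PBX3: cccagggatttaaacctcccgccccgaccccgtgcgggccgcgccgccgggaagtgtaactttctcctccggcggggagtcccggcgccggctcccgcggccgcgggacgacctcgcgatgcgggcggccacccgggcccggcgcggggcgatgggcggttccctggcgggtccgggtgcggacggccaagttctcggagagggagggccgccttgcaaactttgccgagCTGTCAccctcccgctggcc
MEIS1: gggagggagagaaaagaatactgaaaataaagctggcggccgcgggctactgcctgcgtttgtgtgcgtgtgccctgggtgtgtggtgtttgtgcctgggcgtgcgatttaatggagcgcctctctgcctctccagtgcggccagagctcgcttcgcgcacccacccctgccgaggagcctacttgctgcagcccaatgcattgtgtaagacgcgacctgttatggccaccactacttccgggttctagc

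The knockdown was first followed through the fusion partners. MLLT3 fell on both of its probes, by 0.76 and 0.63 on the log2 scale. None of the 4 MLL probes passed the threshold. Probe A_33_P3390570 came near it, with a change of -0.41 and an unadjusted p of 0.0059 in limma. Both of its knockdown arrays lay below both controls. The other MLL probes had changes from -0.08 to 0.05. These probes carry the names of the partner genes, and how far each reads the fusion transcript or the normal one was not examined. Of the monocytic and myeloid markers, 8 of 9 were in the comparison and all 8 were well above background on the 4 arrays, CD33 and SPI1 among them. CD14, a marker of mature monocytes, rose by 1.05 on the log2 scale (limma, adjusted p = 0.0355) and was the 1 call of this list. Of its 8 genes 4 had a change below 0 and 4 above, with a median of 0.01, and CD68 at -0.15 and MPO at -0.22 had both knockdown arrays below both controls. CSF1R at 0.19 had both above, as had CD14. T cell, B cell, erythroid, epithelial and fibroblast markers gave no call, with list medians from -0.05 to 0.33, the last for the erythroid list. Their part in the results was not tested. In such bulk RNA, fewer cells that express a gene and less of its RNA per cell cannot be told apart.

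PBX3, the PBX protein known to work with HOXA9, had log2 intensities at probe A_23_P71821 of 11.16 with siRNA-A and 11.34 with siRNA-B, and of 11.71 and 11.82 with control siRNA-1 and control siRNA-2. Probe A_33_P3348887 gave 10.52 and 10.73 in the knockdown and 11.07 and 11.15 in the controls. At both probes each knockdown array lay below each control array, and the siRNA-A array was the lowest. The log2 fold change was -0.51 (SE 0.12, 95% interval -0.78 to -0.24) at the first probe, with an unadjusted p of 0.0021 and an adjusted p of 0.261 in limma. The second probe gave -0.48 (SE 0.12, 95% interval -0.76 to -0.21), with an unadjusted p of 0.0033 and an adjusted p of 0.319 in limma. These p placed the probes at ranks 212 and 267 of all probes. The 2 probes read the same 4 RNA pools and are not replicates of each other.

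The fall of PBX3 was seen with each siRNA. Against the mean of the controls, the log2 difference at the first probe was -0.60 on the siRNA-A array and -0.42 on the siRNA-B array. The median log2 intensity of all spots in the comparison was 8.56 with siRNA-A and 8.62 with siRNA-B. At the second probe the differences from the mean of the controls were -0.59 and -0.38. The controls differed from each other by 0.10 and 0.07, less than any of these differences. An exact permutation test of 2 against 2 arrays cannot give a two-sided p below 0.333, and PBX3, whose groups did not overlap, had that p. With any 1 of the 4 arrays left out, knockdown or control, the log2 fold changes of both probes were between -0.60 and -0.38 and no longer passed the threshold. Nor was it called with the background-subtracted signal scaled between arrays, where the changes were -0.50 and -0.53 with unadjusted p of 0.0058 and 0.0077. With that signal unscaled they were -0.53 and -0.56 with unadjusted p of 0.0135 and 0.0155, again not called.

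**Figure D1:**
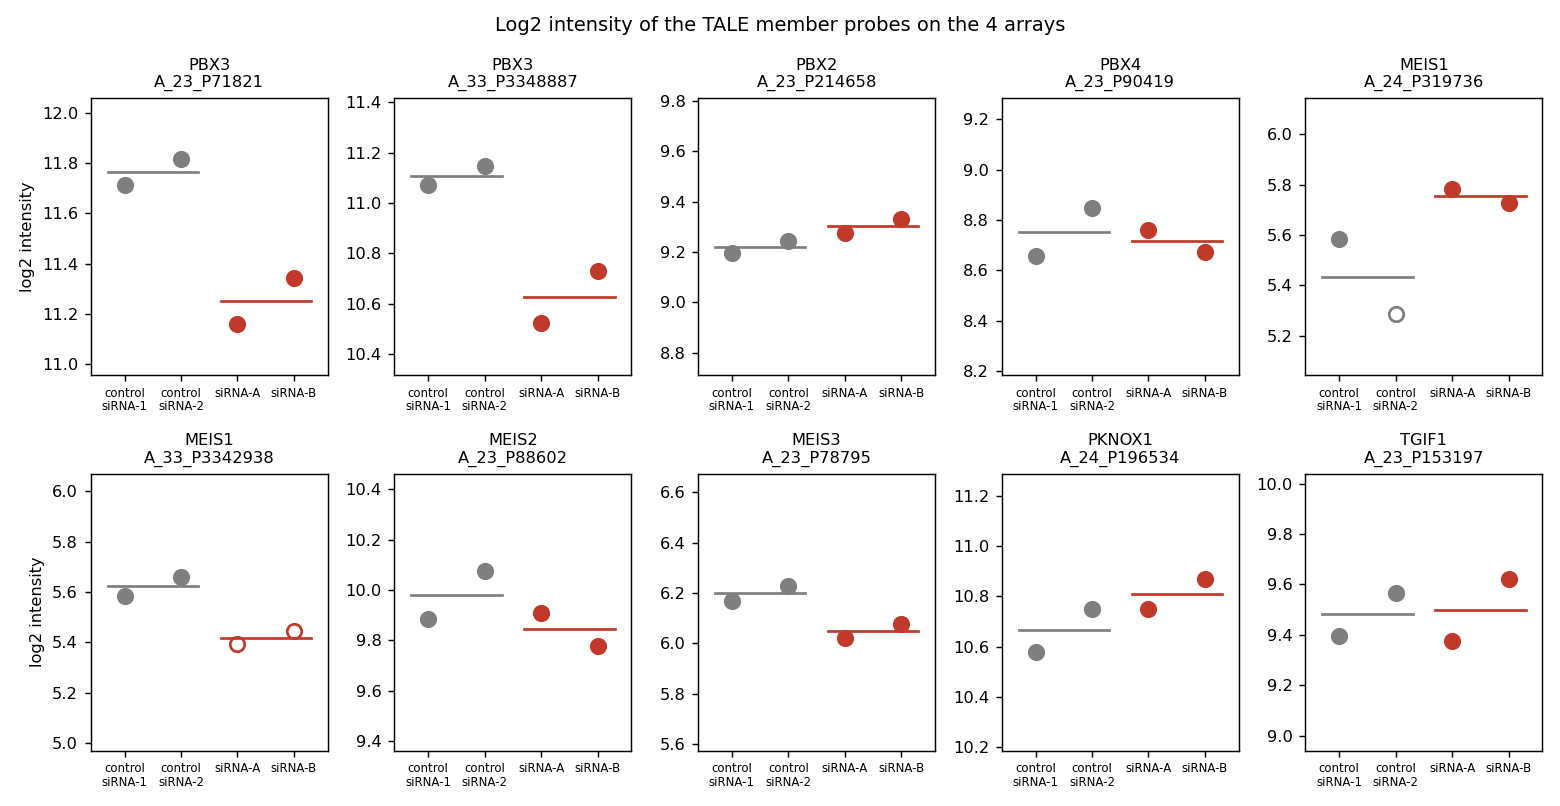
Log2 intensity (y axis, each panel spanning the same range of log2 units) of the 10 member probes on the 4 arrays (x axis), with controls in grey, knockdown in red, group means as lines and open circles where a spot was not well above background. Both PBX3 probes had both knockdown arrays below both controls, and the 2 MEIS1 probes differed in direction.

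PBX2, a widely expressed relative of PBX3, had log2 intensities of 9.27 and 9.33 with siRNA-A and siRNA-B and of 9.20 and 9.25 in the controls. The knockdown arrays were above the controls by a small margin, with a log2 fold change of 0.08 (95% interval -0.17 to 0.33). PBX4, another member of the PBX family, gave 8.76 and 8.67 in the knockdown and 8.66 and 8.85 in the controls, a change of -0.04 (95% interval -0.31 to 0.24), and its groups overlapped.

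Within each array the log2 difference between PBX3 and PBX2 changed by -0.59 with the knockdown, and the difference between PBX3 and PBX4 changed by -0.48. In both pairs the knockdown and control arrays did not overlap, with an exact permutation p of 0.333, the smallest possible. A test with this smallest p cannot establish that the probes changed unequally.

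MEIS1, the HOXA9 partner, was measured at the edge of detection. Probe A_24_P319736 had log2 intensities of 5.78 and 5.73 with siRNA-A and siRNA-B and of 5.58 and 5.29 with control siRNA-1 and control siRNA-2. These correspond to 55, 53, 48 and 39 intensity units beside a local background of 24, 20.5, 20 and 20. The knockdown arrays were higher, and control siRNA-2 was not well above background. The log2 fold change was 0.32 (SE 0.13, 95% interval 0.02 to 0.62), with an unadjusted p of 0.0376 and an adjusted p of 0.597 in limma, which missed the threshold. It was 0.17 without control siRNA-2, the array not well above background, and 0.47 without control siRNA-1.

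Probe A_33_P3342938 of MEIS1 went the other way, with 5.39 and 5.44 in the knockdown and 5.58 and 5.66 in the controls. It was well above background in both controls and in neither knockdown array. Of all spots in the comparison, 92.2% with siRNA-A and 90.6% with siRNA-B were well above background, beside 96.2% and 96.1% in the controls, and the part of this shift in the results for dim probes was not tested. The log2 fold change was -0.20 (SE 0.11, 95% interval -0.45 to 0.05), with an unadjusted p of 0.0973 and an adjusted p of 0.714 in limma. The knockdown level of this probe is only a bound, which was equal to its measured mean. The log2 values given for this probe are therefore differences between measured signals. As the interval of the change includes 0, they are not read as a fold of RNA.

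The changes of the 2 MEIS1 probes thus had opposite signs, and neither passed the threshold. With the scanner's processed signal, which is background-subtracted and also detrended, both changes were larger, at 0.80 and -0.78 scaled between arrays and at 0.76 and -0.81 unscaled. With the unscaled signal A_33_P3342938 passed the threshold (unadjusted p of 0.0028 in limma). Neither of its knockdown arrays was well above background, so this pass cannot establish a fall. A_24_P319736 was not well above background with control siRNA-2, so the sizes of these changes are not exact at either probe. With normexp background correction followed by quantile normalization the changes were smaller or alike, at 0.19 and -0.20.

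**Figure D2:**
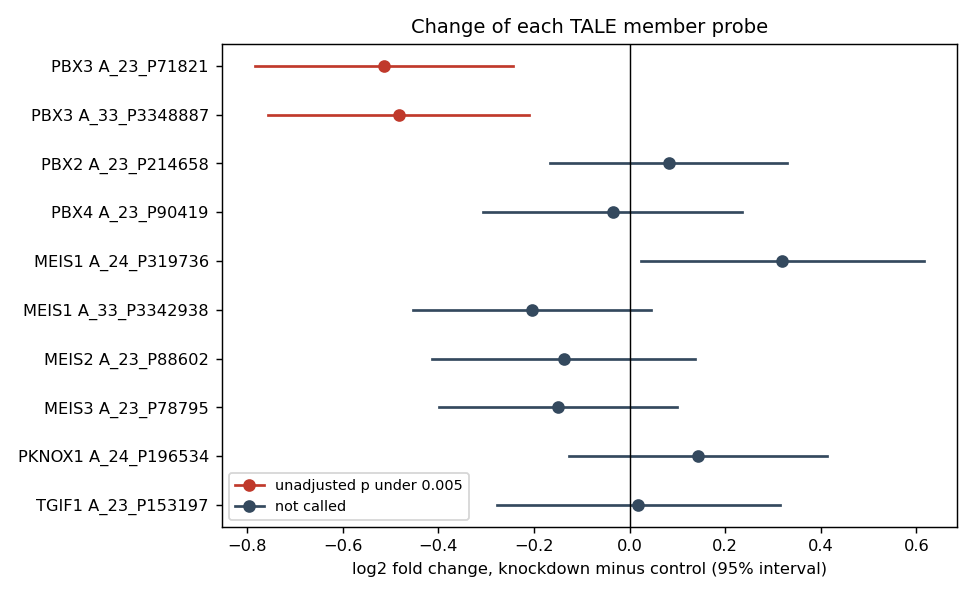
Log2 fold change of each member probe, knockdown minus control (x axis), with its 95% interval from limma and n = 2 arrays per group. The intervals of both PBX3 probes lie below 0, that of MEIS1 A_24_P319736 lies above 0, and the others reach across 0.

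MEIS2, a relative of MEIS1 with the same domain structure, had log2 intensities of 9.91 and 9.78 with siRNA-A and siRNA-B and of 9.89 and 10.08 in the controls. The groups overlapped, with a change of -0.14 (95% interval -0.41 to 0.14). MEIS3, the other MEIS paralog, gave 6.02 and 6.08 in the knockdown and 6.17 and 6.23 in the controls, a change of -0.15 (95% interval -0.40 to 0.10). Its groups did not overlap, with the knockdown lower. By the array's annotation the MEIS3 probe reaches over 5229 bases of chromosome 19 and so crosses a splice junction. The within-array difference of MEIS1, by its brightest probe A_24_P319736, changed by 0.46 against MEIS2 and by 0.47 against MEIS3, each with an exact permutation p of 0.333. This probe was not well above background with control siRNA-2. By the mean of both MEIS1 probes these differences were 0.20 and 0.21, with exact permutation p of 0.667 and 0.333.

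PKNOX1, a partner of PBX proteins that competes with MEIS proteins for them, had log2 intensities of 10.75 and 10.87 with siRNA-A and siRNA-B and of 10.58 and 10.75 in the controls. The knockdown arrays were at or above the controls, with a change of 0.14 (95% interval -0.13 to 0.41). PKNOX2 was not well above background on any array, with 24.5 to 33 intensity units beside a local background of 19 to 22. Its difference from PKNOX1 was therefore not compared. TGIF1, the repressor of the group, gave 9.38 and 9.62 in the knockdown and 9.39 and 9.57 in the controls, a change of 0.02 (95% interval -0.28 to 0.31). Here the 2 knockdown arrays were farther apart than the group means, by 0.25 on the log2 scale.

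Over the members, 2 of 10 probes were called, both lower and both of PBX3, where 0.732% of all probes were called lower and 1.32% were called in either direction. By gene, with the brightest probe for each, 1 of 8 was called, PBX3, against 1.3% of 16300 genes with a symbol in either direction and 0.65% lower. An unadjusted p under 0.05 was reached by 2 of the 8 genes and by 7.88% of all genes. The adjusted p of limma was above 0.05 at every member probe, while 0.118% of all probes passed that threshold. An unadjusted p under 0.05 was reached by 3 member probes and by 8.06% of all probes. The groups did not overlap at 7 of the 10 probes, beside 36.6% of all probes. The 8 genes were split evenly, 4 with a change below 0, where 56.5% of all genes lay, and 4 above, and their median change was -0.01, beside -0.02 for all genes with a symbol. This split takes MEIS1 by A_24_P319736, the brighter of its probes over all 4 arrays but not in the controls. Over the 10 probes 6 changes were below 0 and 4 above, with a median of -0.09, beside -0.02 for all probes. The standard errors of the member probes, which limma drew toward those of all probes, ranged from 0.11 to 0.13. Changes of the size seen for PBX2, PBX4 and TGIF1 could therefore not be told from 0 with 4 arrays.

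**Figure D3:**
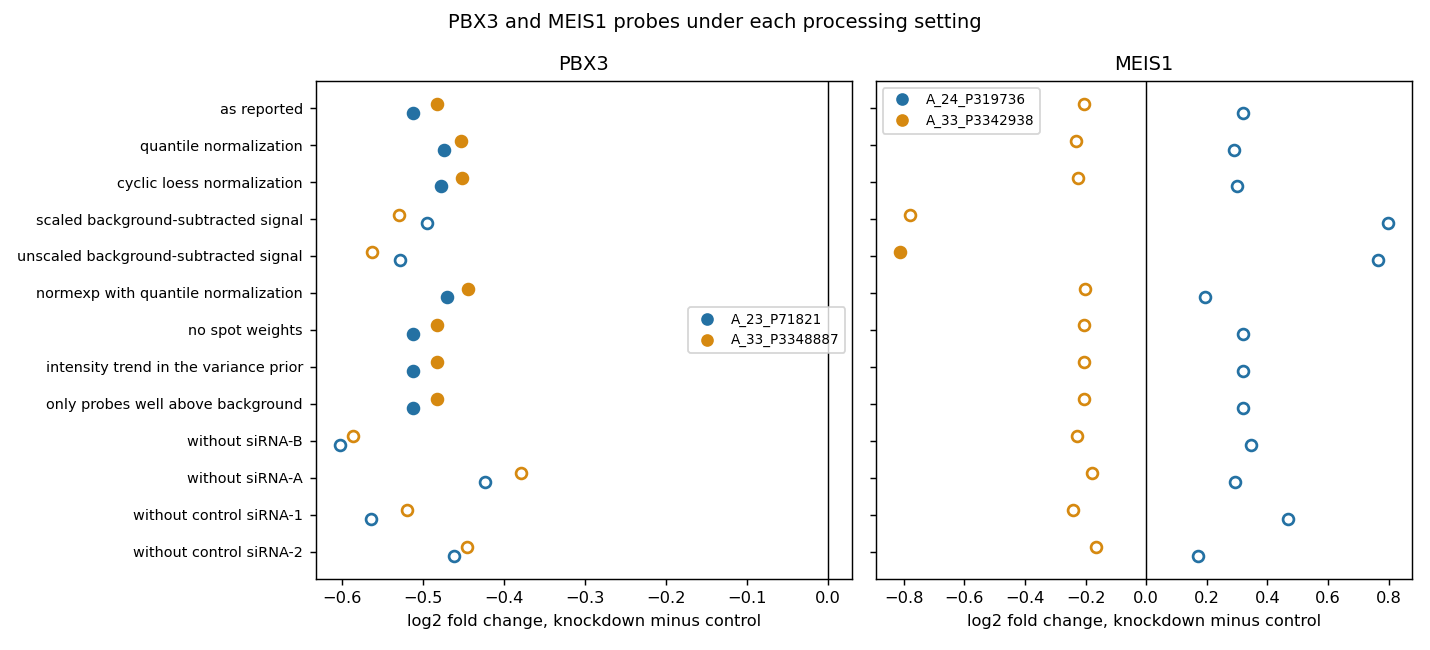
Log2 fold change (x axis) of the PBX3 and MEIS1 probes under each processing setting (y axis), with filled circles for an unadjusted p under 0.005. PBX3 stayed below 0 in every setting shown, and the 2 MEIS1 probes stayed on opposite sides of 0.

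The remaining genes of the TALE class were measured for 6 of 10, the Iroquois genes IRX3, IRX4, IRX5 and IRX6, the Mohawk gene MKX and TGIF2. No gene of this list was called by limma, and IRX3 alone reached an unadjusted p under 0.05. All 6 had both knockdown arrays below both controls, as had 21.3% of all genes with a symbol, and their median log2 change was -0.18. Only IRX3, IRX5 and TGIF2 of these were well above background on all 4 arrays. IRX3, a developmental patterning factor, had 12.74 and 13.03 in the knockdown and 13.12 and 13.25 in the controls, a change of -0.30 with an adjusted p of 0.617 in limma. IRX5, its neighbour in the genome, gave 11.45 and 11.74 against 11.81 and 11.90, a change of -0.26 with an adjusted p of 0.688 in limma.

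HOX genes, whose proteins share DNA sites with PBX and MEIS proteins, were measured for 22 of 39. Of these 3 fell past the threshold and none rose, beside 0.65% of all genes called lower, and the median log2 change was -0.13. HOXA9, the HOX gene best known with PBX3 and MEIS1 in leukemia, had 11.14 with siRNA-A, 11.48 with siRNA-B and 11.86 and 11.89 in the controls, a change of -0.56 (unadjusted p of 0.0027, adjusted p of 0.294 in limma). HOXA11, a posterior HOXA gene, fell by 0.50 and HOXC4, an anterior HOXC gene, by 0.76 on the log2 scale, with adjusted p of 0.232 and 0.123 in limma. In all 3 the knockdown arrays lay below the controls. The count of called HOX genes was 1 without siRNA-A and 0 without either control siRNA-1 or control siRNA-2.

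Genes reported as targets of HOXA9, MEIS1 or PBX3 were measured for 14 of 18. SOX4, a progenitor transcription factor, had 7.64 with siRNA-A, 8.02 with siRNA-B and 8.75 and 8.59 in the controls. It fell by 0.84 on the log2 scale, with an adjusted p of 0.133 in limma, and was the 1 gene of the list that was called. Leaving out siRNA-A or either of the controls gave 0 called targets, as did the scaled background-subtracted signal, and leaving out siRNA-B gave 2. The median of the list was -0.05, with 9 genes below 0 and 5 above. Of 18 coactivators, corepressors and binding proteins of PBX, MEIS or TGIF1, all were measured. By limma 0 were called, and 0 reached an unadjusted p under 0.05. SMAD3, a TGF-beta effector, had the change farthest from 0 among these, at 0.21 (adjusted p of 0.713 in limma). Their median was 0.04.

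**Figure D4:**
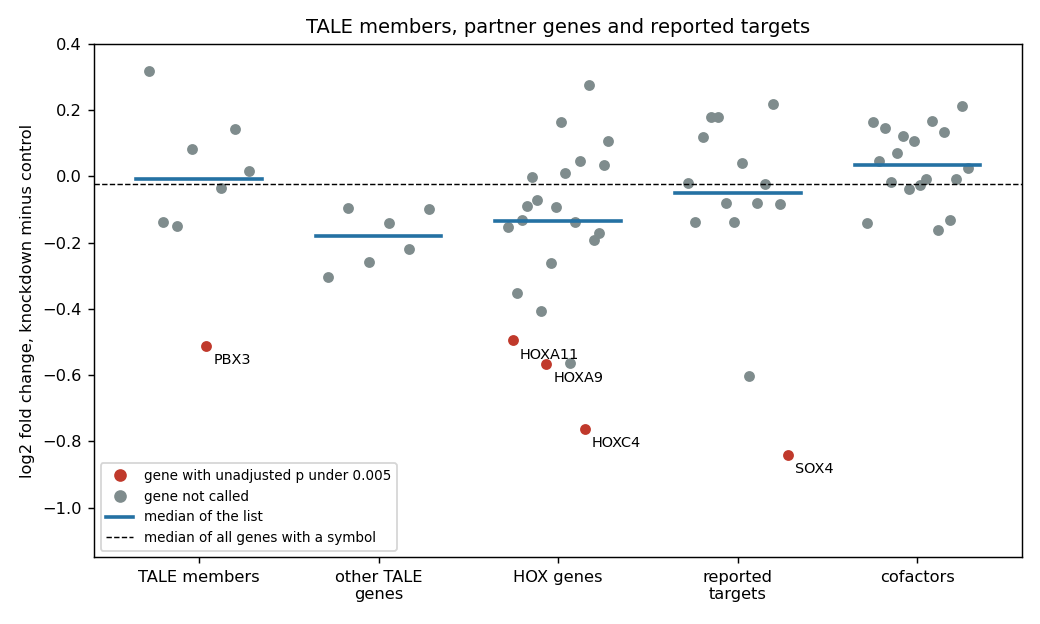
Log2 fold change of each measured gene, by its brightest probe (y axis), for the TALE members and 4 lists of related genes (x axis), with called genes in red and the list median as a blue line. PBX3, HOXA9, HOXA11, HOXC4 and SOX4 were called, all below 0.

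Genes with the 4-array pattern nearest to that of PBX3 were found by the distance between log2 intensities centred on their mean, among 14579 other genes well above background on all arrays. The 5 nearest were COL14A1, a fibril-associated collagen, SPINT2, a serine protease inhibitor, TMEM179B, C2orf76 and NR1H3, the oxysterol receptor LXR-alpha. Their distances were 0.04 to 0.06 log2 units. COL14A1, the nearest, had 6.39 with siRNA-A, 6.58 with siRNA-B and 6.97 and 7.08 in the controls, a change of -0.53. SPINT2 gave 10.79, 10.92, 11.34 and 11.39 in the same order, a change of -0.51. Both showed the order of PBX3, with siRNA-A lowest and control siRNA-2 highest, but they were chosen for this likeness. The median log2 intensity of all spots in the comparison was also lowest with siRNA-A (8.56) and highest with control siRNA-2 (8.65). It was 8.62 with siRNA-B and 8.58 with control siRNA-1. The part of these medians in the shared order was not tested. With quantile normalization 3 of the 5 remained, SPINT2, C2orf76 and NR1H3. The likeness rests on 4 arrays and is a description.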

How the data were processed

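Gene expression in THP1 cells was measured on 4 single-colour Agilent arrays, 2 after knockdown of MLL-AF9 and 2 after control siRNAs. The authors extracted spots with Agilent Feature Extraction 10.5.1.1 and deposited, for each spot, its raw intensity, without background correction or between-array normalization, together with a fraction from 0 to 1 that weights its quality. The deposited intensity was exactly equal, with no tolerance, to the scanner's median signal in 100% of spots. The origin of the weights is not given in the sources used here. The number of arrays limits the precision.

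Of 44495 spots 1377 were controls, and 33323 spots of 26219 probes had a weight above 0 on all arrays. Log2 intensities, averaged over identical spots, were fitted by group with limma 3.58.1 (R 4.3.3), using those weights and no covariates, and two-sided p were adjusted by Benjamini-Hochberg over all probes. The study's methods name limma on unnormalized data and the same p threshold. The averaging and the weights were chosen here, and the methods' second condition, on identical replicate spots, was not applied. The fit as reported here called 345 of 26219 probes, fewer than the study lists. Each member probe had 1 spot. The fit was tested on simulated data. Exact permutation tests used scipy 1.17.1. Genes with several probes were taken by the brightest, and genes named by an accession or a LOC number were left out of counts over genes with a symbol.

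The text names all members, the fusion partners, every called gene of each list or else the 2 largest changes well above background, and the 5 genes nearest to a called member. Some genes that this rule names are not reported here. The members and lists were chosen with earlier results of these data known. Markers and, for the sensitivity to processing, IRX6 were named after their values were seen. Alternatives were other normalizations, background-subtracted signals, weights, filters, thresholds and leaving out each array.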

Additional observations from a re-analysis of the deposited data

How the results depend on the processing

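No paired analysis was possible because each array held a pool of 5 experiments and its own siRNA. The count of called member probes, 2, was 0 with the scaled background-subtracted signal and 0 at an adjusted p under 0.05. It was 1 with the unscaled signal, where the call was MEIS1 A_33_P3342938 and not PBX3. That probe was well above background in neither knockdown array. Called member genes, 1, were 0 with either background-subtracted signal, 0 at an adjusted p under 0.05 and 2 at an unadjusted p under 0.05, where PBX3 was joined by MEIS1, through A_24_P319736 and against the sign of its other probe. Leaving out any 1 array gave 0 member probes and 0 member genes, 0 to 3 HOX genes and 0 to 2 target genes. Of all probes 1.32% were called as reported, 0.297% to 0.923% without 1 array, 0.812% with the scaled signal and 1.05% with the unscaled one. Other TALE genes, 0, were 1 with the scaled signal, 1 with the unscaled signal (IRX6 in both) and 1 at an unadjusted p under 0.05 (IRX3). HOX genes, 3, were 0 at an adjusted p under 0.05 and 5 at an unadjusted p under 0.05. Target genes, 1, were 0 with the scaled signal, 0 at an adjusted p under 0.05, 2 at an unadjusted p under 0.05 and 2 with probes well above background alone. Of 5 nearest genes 3 were shared under quantile normalization. PBX4, at -0.04, was 0.0025 with quantile normalization, 0.0047 with normexp followed by quantile normalization and, with single arrays left out, from -0.13 (control siRNA-1) to 0.061 (control siRNA-2), with 0.0090 for siRNA-B. TGIF1, at 0.02, ranged with single arrays left out from -0.11 (siRNA-B) to 0.14 (siRNA-A), with -0.069 for control siRNA-1. The median change of all probes, -0.018 in the main fit, was -0.051 without control siRNA-1 and 0.011 without control siRNA-2. It was -0.046 without siRNA-B, 0.0094 without siRNA-A and 0.0023 with quantile normalization. The cause was not tested, except that a fit without 1 array holds fewer samples. The other 6 member genes kept the direction of every probe in all 12 alternatives, but not the size. Without single arrays MEIS1 A_24_P319736 ranged from 0.17 (control siRNA-2) to 0.47 (control siRNA-1), MEIS2 from -0.23 (control siRNA-1) to -0.043 (control siRNA-2), PKNOX1 from 0.059 (control siRNA-1) to 0.23 (control siRNA-2) and PBX2 from 0.054 (siRNA-B) to 0.11 (siRNA-A). The within-array differences between family members kept their direction under both alternatives tried.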
